A study of Drosophila melanogaster with 3 samples.

Results

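The regions described here are the Mam-GFP ChIP-seq peaks whose summits lay in the 3' UTR of a protein-coding gene. A summit had to lie more than 500 bp from every protein-coding transcription start site (TSS), outside every 5' UTR and coding sequence, and inside an annotated 3' UTR. Of 24073 peaks in the pooled dm6 list, 505 met this rule, and 37 of them were also in the authors' list thresholded on the irreproducible discovery rate (IDR). These 37 are called reproducible below, and the other 468 are called weaker. The pooled list is labelled as peaks and background, the input to the IDR step. Weaker members can therefore include background, and a count of members is not a count of bound sites. The rule uses position only, so it fixes neither the signal nor the reproducibility of the peaks.

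The series is a ChIP-seq experiment on whole Drosophila melanogaster embryos aged 0 to 24 h, both sexes together. The flies carry a MiMIC cassette in an intron of mam that was exchanged for an eGFP exon, so that Mastermind is made as a GFP fusion from its own locus. Sonicated chromatin of 200 to 800 bp was precipitated with an antibody against GFP. There was 1 group with 3 replicates, and a possible control named by the labels was not analysed here.

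Mastermind is the nuclear co-activator of the Notch pathway. It has no sequence-specific DNA-binding domain of its own and joins the Notch intracellular domain on the DNA-binding protein Su(H), where it recruits histone acetyltransferases. A 3' UTR is the transcribed stretch between the stop codon and the poly(A) site, better known for RNA-binding protein and microRNA sites than for transcription factor binding. Because whole embryos were used, a peak bound weakly in all cells and one bound strongly in few cells cannot be told apart.

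The sequences below show the letters beside strong reproducible 3' UTR summits. Only strings of at least 7 letters were considered and 1 match is shown per peak, the one nearest the summit, for the 12 strongest such peaks on the arms shown. Other matches, and peaks with none, are left out, so the list does not show how common a string is. All were read 5' to 3' from the RefSeq Release 6 assembly (dm6). Capitals mark the match and lower case its 10 flanking bases. The Zelda letters, CAGGTAG, are those bound by the early embryonic activator Zelda. A match is a description of the letters and not evidence of binding.
CG7872, Zelda: tgtgaccagcCAGGTAGgggtataatt
Cals, Zelda: ttacacgcgcCAGGTAGatttttcggt
by, AP-1: taaacaaataTGAATCAgtggcgtttc
APC7, A tract: atttcaccatAAAAAAAAtaataataat
CG8206, A tract: cgtacacagaAAAAAAAAcctggtcaat
REG, A tract: taaaactggaAAAAAAAAcaagaattaa
CG14440, A tract: ataaaaaaaaAAAAAAAAcggagggaaa
raskol, GATA: gcttacttttTGATAAGcctaaagtta
Bre1, GATA: tggttataatTGATAAGtaattgtaat
Ssu72, GC box: gagccacacaGGGGCGGaacggtctgg
para, CA repeat: cactcacacaCACACACAaacacataca
Ac13E, CA repeat: cacacacacaCACACACAccaaccccca
The Zelda matches lay at chrX:15579755-15579781 on the minus strand, 32 bp from the CG7872 summit, and at chr4:1113410-1113436 on the plus strand, 60 bp from the Cals summit. The AP-1 match lay at chr3R:9528641-9528667 on the plus strand, 8 bp from the by summit. The 4 A tracts lay at chrX:6599430-6599457 (plus), chrX:15740425-15740452 (minus), chrX:13214220-13214247 (plus) and chrX:6696740-6696767 (minus), 14 to 74 bp from their summits. The GATA matches lay at chrX:17751936-17751962 (plus) and chr3L:5789953-5789979 (minus), the GC box at chrX:19665984-19666010 (plus), and the CA repeats at chrX:16458842-16458869 (minus) and chrX:15511580-15511607 (minus).

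Peaks in 3' UTRs were few and mostly weak. They made up 2.10% of the pooled peaks, while the bases open to the rule made up 4.52% of the chromosome arms. This gave 83.4 peaks per Mb in 3' UTRs, against 111 per Mb in coding sequence, 171 per Mb in introns and 507 per Mb within 500 bp of a TSS. Their median signal, the authors' peak height, was 44.3 (95% interval 43.1 to 46.2, range 35.0 to 735), against 42.5 in coding sequence, 48.0 in 5' UTRs, 49.8 between genes, 52.7 in introns and 79.8 at promoters. The median of all pooled peaks was 54.6. In signal the 3' UTR peaks therefore stood just above coding peaks and below every other class.

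Of the 505 peaks, 37 were reproducible, or 7.33% (exact Clopper-Pearson 95% interval 5.21 to 9.96), where 22.1% of all pooled peaks and 14.8% of pooled peaks over 500 bp from a TSS were. The share was 0.436% in coding sequence, 9.27% in 5' UTRs, 15.4% between genes, 18.4% in introns and 37.4% at promoters. The reproducible list was the same set as the 5326 strongest pooled peaks, with signals of 110.26 or more against 110.24 or less in the rest. The share and the median signal are thus readings of the same values and do not support each other. The limit fell between the 3' UTR peak of ctp, with a signal of 111, and that of Cam, with 107.

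**Figure D1:**
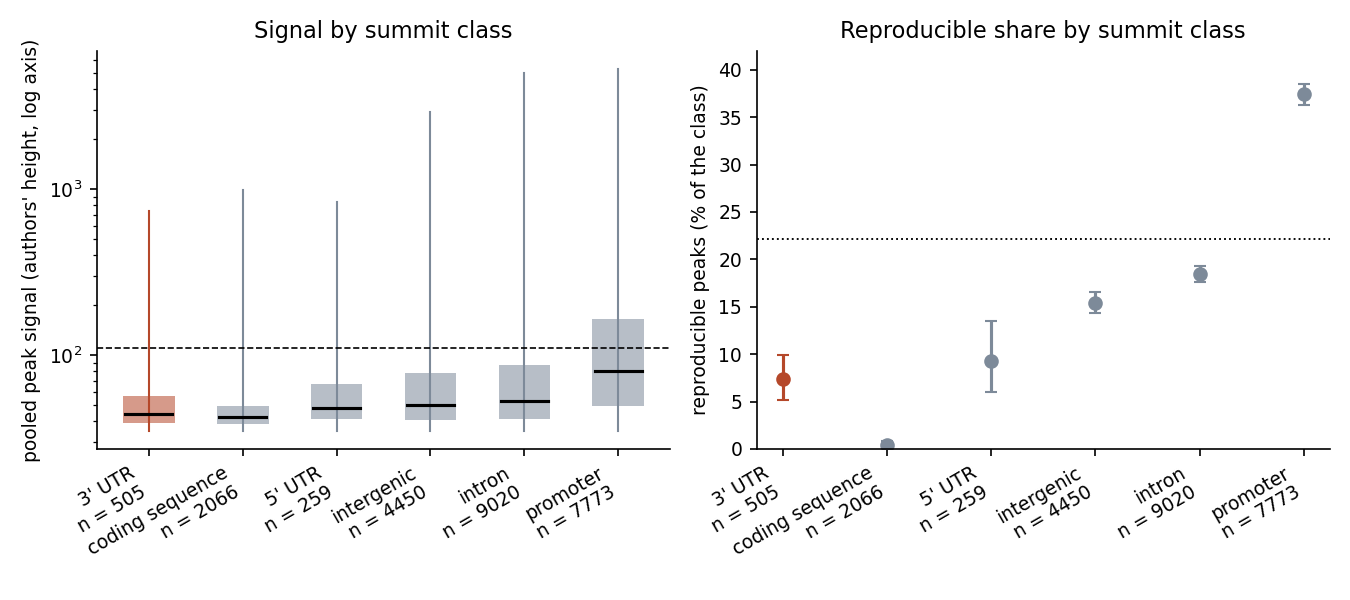
Left, the signal of pooled peaks by summit class on a log axis, with boxes from the lower to the upper quartile, a bar at the median, lines over the whole range and a dashed line at the lowest reproducible signal (110.26). Right, the percent of each class that was reproducible with 95% binomial intervals, and a dotted line at 22.1% for all pooled peaks; 3' UTR peaks sit at 7.33%, above coding sequence only.

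The same rule was applied to each replicate's own list. Replicates 1, 2 and 3 had 975 of 30000, 441 of 24267 and 486 of 24306 summits in 3' UTRs. The median rank percentile of these peaks, where 100 is the strongest peak of the list, was 36.3, 35.1 and 34.6. It averaged 35.4 ± 0.881 for 3' UTR peaks and 50.5 ± 0.177 for all other peaks (SD, n = 3 replicates each). The difference of −15.1 was negative in 3 of 3 replicates (exact sign-flip permutation p = 0.25, two-sided, the smallest p that 3 replicates allow). All 3 values of the 3' UTR class were above those of coding sequence, by 4.64 on average (exact sign-flip permutation p = 0.25), and below those of each remaining class.

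**Figure D2:**
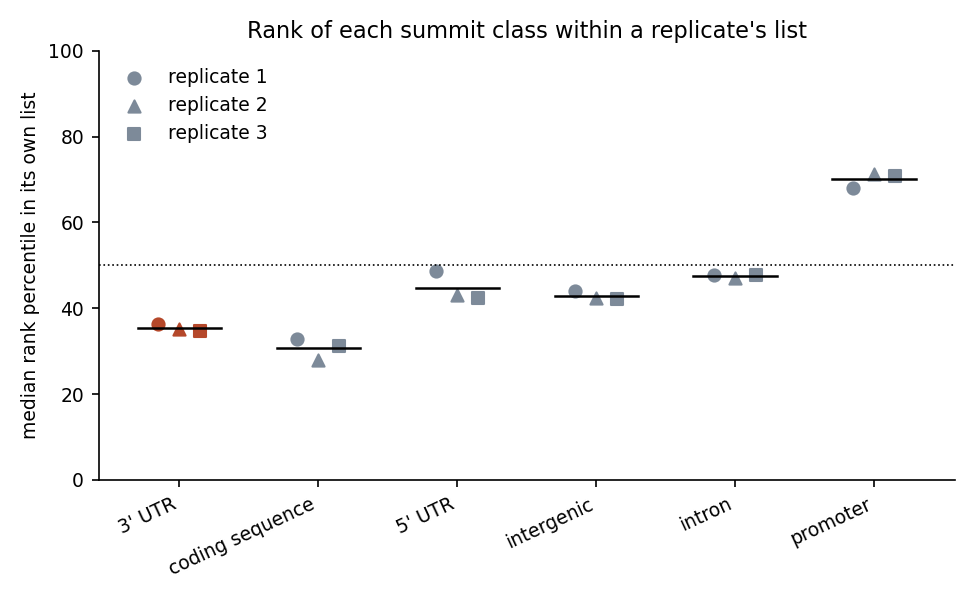
Median rank percentile of each summit class within the list of each replicate, with 1 point for each of the 3 replicates and a bar at their mean. The 3' UTR points lie between 34.6 and 36.3, below the dotted line at 50 and below promoters at 68.1 to 71.2.

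Strong replicate peaks were rarely in 3' UTRs. Among the 5326 strongest peaks of replicates 1, 2 and 3, the 3' UTR share was 0.732%, 0.770% and 0.713%, against 3.79%, 2.11% and 2.36% among the weaker peaks of the same lists. The strong shares lay close together, at 39, 41 and 38 peaks, while the weak share was highest in the longest list. The mean difference was −2.02 percentage points and was negative in 3 of 3 replicates (exact sign-flip permutation p = 0.25). The list of replicate 1 held exactly 30000 rows, and the labels do not say whether its end was set by a limit on rows.

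Replicate support was lower for 3' UTR peaks than for the pooled list as a whole. Of the 505, 141 (27.9%) were overlapped by at least 1 bp by a peak of all 3 replicate lists. The share was 50.2% for all pooled peaks, which include promoter peaks, and 41.3% for pooled peaks over 500 bp from a TSS. Of the same 505, 28 (5.54%) were overlapped by the strongest peaks of all 3 replicates. Here the share was 18.3% for all pooled peaks and 11.6% for those over 500 bp from a TSS. The strongest peaks of 1 replicate covered 8.78% ± 0.824 of the 3' UTR peaks and 24.9% ± 0.0730 of all pooled peaks (SD, n = 3 replicates). No replicate list overlapped 15 of the 505 (2.97%), where 1.75% of all pooled peaks had no overlap.

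All 37 reproducible peaks were overlapped by all 3 full replicate lists, as were 99.5% of all reproducible peaks. The strongest peaks of all 3 replicates overlapped 23 of them (62.2%, 95% interval 44.8 to 77.5), against 73.5% of all reproducible peaks. Those of 2 replicates overlapped 13 (35.1%, against 19.4%), and 1 (MESK2) was met by the strongest peaks of 1 replicate. Among the 468 weaker peaks, 442 (94.4%) were met by no strong replicate peak. The 5 weaker peaks met by strong peaks of all 3 replicates, in CNBP, CG33307, Pp2C1, Cht7 and CG1888, each had a reproducible summit 200 to 230 bp away. In CG33307 and CG1888 the replicate peaks counted for the weaker peak had the same ranks as those counted for the reproducible peak of the same UTR. No other member had a reproducible summit within 500 bp.

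**Figure D3:**
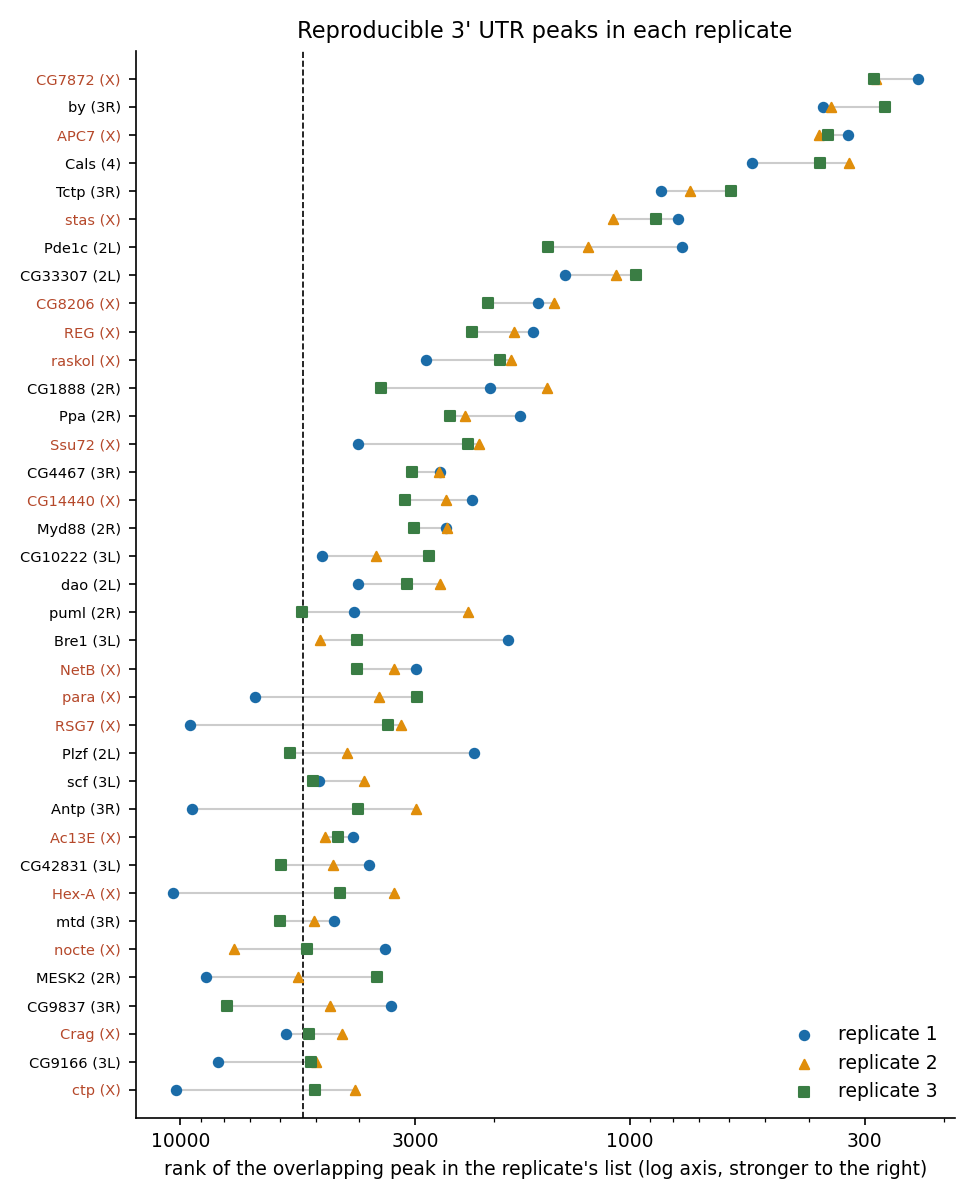
Rank of the replicate peak that overlaps each of the 37 reproducible 3' UTR peaks, on a log axis with stronger peaks to the right, 1 symbol per replicate and hosts ordered by pooled signal from the top (chromosome in parentheses, X in red). The dashed line marks rank 5326; the upper 19 hosts lie right of it in every replicate, and lower rows spread across it.

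The strongest 3' UTR peak was in CG7872, at chrX:15579662-15579935, with a pooled signal of 735. It ranked 229, 283 and 286 in replicates 1, 2 and 3. Its summit was 364 bp past the stop codon and 57 bp before the end of a UTR of 422 bp. The peak of by, which encodes the focal adhesion protein tensin, lay at chr3R:9528527-9528769 with a signal of 661. It ranked 372, 357 and 271, and its summit was 2175 bp into a UTR of 2584 bp. Both summits lay near the 3' end of their UTR, at 86.4% and 84.2% of its length, and neither ranked below 372 in any replicate.

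The third was APC7, a subunit of the anaphase-promoting complex, at chrX:6599343-6599645 with a signal of 634 and ranks of 327, 379 and 362. Its summit was 605 bp from a TSS, the shortest such distance among reproducible 3' UTR peaks. Cals, the neuronal transmembrane protein calsyntenin, followed at chr4:1113202-1113494 with a signal of 596 and ranks of 535, 326 and 377. The Cals summit was also 46 bp from the 3' end of the opposite-strand gene sv, so the stretch belongs to a tail-to-tail gene pair. Cals held the only reproducible 3' UTR peak of chromosome 4.

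Tctp, the translationally controlled tumour protein, had a peak at chr3R:11211718-11211926 with a signal of 455 and ranks of 854, 735 and 596. The peak of stas, which encodes the transmembrane protein stasimon, lay at chrX:17625054-17625218 with a signal of 395 and ranks of 782, 1089 and 873. Pde1c, a calmodulin-dependent cyclic nucleotide phosphodiesterase, had a peak at chr2L:11816465-11816661 with a signal of 349 and ranks of 764, 1240 and 1517. The Pde1c summit lay 6 bp past the stop codon, the closest to coding sequence among the reproducible peaks, and its window had a G+C content of 59.2%, the highest of them.

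CG33307 carried a peak at chr2L:13839785-13839933 with a signal of 346 and ranks of 1392, 1074 and 967. This UTR lies inside an intron of the opposite-strand gene CenG1A, so the position can be read as either feature. CG8206 had a peak at chrX:15740325-15740458 with a signal of 276 and ranks of 1597, 1471 and 2066, and its summit was 3 bp before the end of the transcript. REG, the PA28γ proteasome activator, had a peak at chrX:13214079-13214474 with a signal of 254 and ranks of 1643, 1808 and 2242. Of these 10 strongest peaks, 5 were on X, and all 10 had ranks within the 5326 strongest of every replicate.

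The other 27 reproducible peaks had signals of 111 to 237. They fell in genes of many kinds. Signalling genes among the hosts were raskol (a Ras GTPase-activating protein, signal 237), Myd88 (the Toll receptor adaptor, 191), RSG7 (a regulator of G-protein signalling, 147) and Ac13E (an adenylyl cyclase, 131). Hosts with roles in the nervous system were NetB (a netrin axon guidance ligand, 165) and para (the voltage-gated sodium channel, 151). Hosts acting in the nucleus were Ssu72 (a phosphatase of RNA polymerase II, 206), Bre1 (the ubiquitin ligase of histone H2B, 168) and the Hox gene Antp (133).

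The remaining hosts were CG1888, the F-box gene Ppa, CG4467, CG14440, CG10222, dao, puml, Plzf, scf, CG42831, the hexokinase gene Hex-A, mtd, nocte, MESK2, CG9837, the Rab exchange factor gene Crag, CG9166 and the dynein light chain gene ctp. Their signals ran down to 111 for ctp. Some reproducible peaks had ranks far apart between replicates, in either direction. Replicate 1 ranked ctp (10212, 4076 and 5018 in replicates 1, 2 and 3), Hex-A (10388, 3346 and 4407) and RSG7 (9510, 3219 and 3446) lowest. It ranked Plzf (2218, 4259 and 5693), CG9837 (3395, 4644 and 7878) and nocte (3498, 7603 and 5224) highest. Each reproducible peak had a host of its own, so no 3' UTR held more than 1.

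The 10 strongest of the weaker peaks had signals of 98.2 to 107. The calmodulin gene Cam held 2 of them, at 107 and 98.2. The others were in CG9500 (107), by (105, a second peak 922 bp from its strong one), CG43736 (104), pros (104), CNBP (103), CG1572 (102), CG16989 (99.7) and the gap junction gene Inx2 (98.3). All 10 were overlapped by all 3 full replicate lists.

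The 505 peaks lay in 445 host genes. Of these, 394 held 1 peak, 46 held 2 and 5 held at least 3. The 5 were ps with 6 peaks (signals 35.5 to 52.1), CG1888 with 4 (36.4 to 233), pros with 3 (36.0 to 104), corto with 3 (36.7 to 74.8) and Vha26 with 3 (46.4 to 59.2). The RNA-binding protein gene ps, the fly counterpart of Nova, had its 6 peaks spread over 6602 bp of a UTR of 7651 bp, and none of them was reproducible. The pros UTR, of a neural lineage transcription factor, was 15530 bp long. Of these genes only CG1888 held a reproducible 3' UTR peak. The peaks of a gene were not always separate stretches. Vha26 and CG1888 each held a pair of summits 212 and 230 bp apart, less than the usual peak width of 396 bp. Of the 505, 46 (9.11%) had another pooled summit within 250 bp.

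Host UTRs were long. The longest 3' UTR per host gene had a median of 1398 bp, against 227 bp over all 13534 genes with a 3' UTR. A median of 1344 bp is obtained over all genes when each UTR is weighted by its bases, as a summit placed evenly over UTR sequence would weight it. The host median was close to that weighted value. Hosts of reproducible peaks had a median of 1408 bp.

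Summits were spread over the whole UTR. The median summit of the 505 lay 635 bp past the stop codon and 512 bp before the transcript end. Of the 505, 96, 94, 98, 100 and 117 lay in 5 equal stretches of the UTR, from the stop codon to the transcript end. The stretch next to the transcript end held 23.2% (95% interval 19.6 to 27.1). Among the 37 reproducible peaks the counts were 4, 7, 9, 4 and 13, and the stretch next to the transcript end held 35.1% (20.2 to 52.5). The interval of the 505 includes the 20% of an even spread, and the lower end of the interval of the 37 lies just above it. That stretch held the highest count of the 5 in both sets, and the intervals take peaks as independent. The 20% also takes every UTR base as open to the rule, and the open bases of each stretch were not counted. A departure from an even spread was therefore not tested. The 37 are part of the 505, and the shares were not tested against each other.

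**Figure D4:**
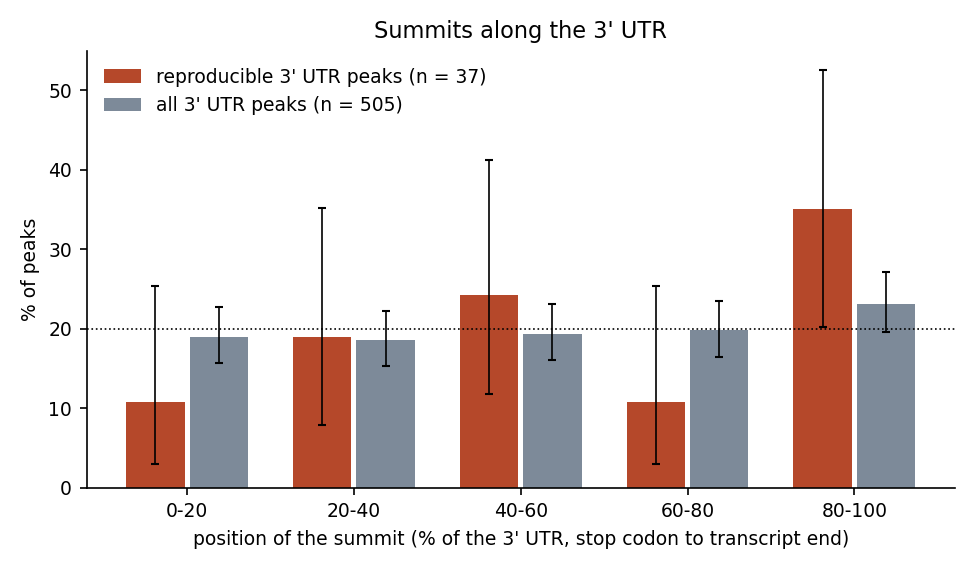
Percent of summits in 5 equal stretches of the 3' UTR from the stop codon to the transcript end, for reproducible peaks and for all 505, with 95% binomial intervals and a dotted line at the 20% of an even spread. The bars for all peaks run from 18.6% to 23.2%; those for reproducible peaks run from 10.8% to 35.1% with wider intervals.

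At the 500 bp limit of the rule, 3' UTR summits just inside and just outside differed little in signal. The 10 members 501 to 600 bp from a TSS had a median signal of 51.0 and none was reproducible. The 19 summits 401 to 500 bp from a TSS, which the rule left out, had a median of 49.7 and 2 were reproducible. Closer still, 28 of 72 3' UTR summits within 250 bp of a TSS were reproducible (38.9%). Among members the reproducible share showed no steady course with distance, at 2 of 70, 13 of 139, 14 of 169 and 8 of 117 in the bins of 601 to 1000, 1001 to 2000, 2001 to 5000 and over 5000 bp.

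Members near other annotated features were counted, but the same counts were not made for other pooled peaks. A non-coding TSS lay within 500 bp of 17 (3.37%), of which 1 was reproducible, in Plzf, 302 bp from the start of lncRNA:CR44589. The 3' end of an opposite-strand gene lay within 500 bp of 78 of the 505 (15.4%) and of 6 of the 37 (16.2%). An intron of another transcript also covered 82 of the 505 (16.2%) and 5 of the 37 (13.5%). The reproducible peaks and the members as a whole gave similar shares for each of these features.

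Host genes often carried a promoter peak as well. A gene was counted when any of its annotated TSSs had a summit within 500 bp. Genes with more TSSs can thus be counted more easily, and TSS number was not matched between hosts and all genes. A pooled peak within 500 bp of a TSS was found at 31 of the 37 hosts of reproducible 3' UTR peaks (83.8%) and at 338 of all 445 hosts (76.0%), against 52.9% of the 13534 genes. A reproducible promoter peak was found at 17 of the 37 (45.9%, 95% interval 29.5 to 63.1) and at 167 of the 445 (37.5%), against 27.0% of all genes. Some of the strongest 3' UTR peaks were in hosts with no promoter peak at all, such as Pde1c and CG33307. CG7872, APC7 and Cals had a promoter peak that was not reproducible.

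The X chromosome held many of the reproducible 3' UTR peaks, a feature chosen for description after its values were seen. It carried 16 of the 37 (43.2%, 95% interval 27.1 to 60.5), against 95 of the 468 weaker ones (20.3%). X held 23.3% of the 3' UTR bases open to the rule and 22.0% of all reproducible peaks over 500 bp from a TSS. Per Mb of open 3' UTR there were 11.3 reproducible peaks on X and 4.52 on the autosomes, while all members stood at 78.6 and 84.9 per Mb. X was therefore above the autosomes in reproducible 3' UTR peaks per base, and not in 3' UTR peaks as a whole.

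The replicate lists gave similar shares. Of the strongest 3' UTR peaks, 14 of 39, 17 of 41 and 16 of 38 were on X in replicates 1, 2 and 3 (35.9%, 41.5% and 42.1%), against 22.0%, 21.3% and 20.1% of the weaker 3' UTR peaks. The difference was 18.7 ± 4.27 percentage points and was positive in 3 of 3 replicates (exact sign-flip permutation p = 0.25). Against the strongest other peaks over 500 bp from a TSS, at 21.0%, 22.3% and 22.8% on X, it was 17.8 ± 2.51 points, again positive in 3 of 3 (exact sign-flip permutation p = 0.25). The replicates and the pooled list draw on the same libraries, so the replicate shares are not further evidence for the pooled one.

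**Figure D5:**
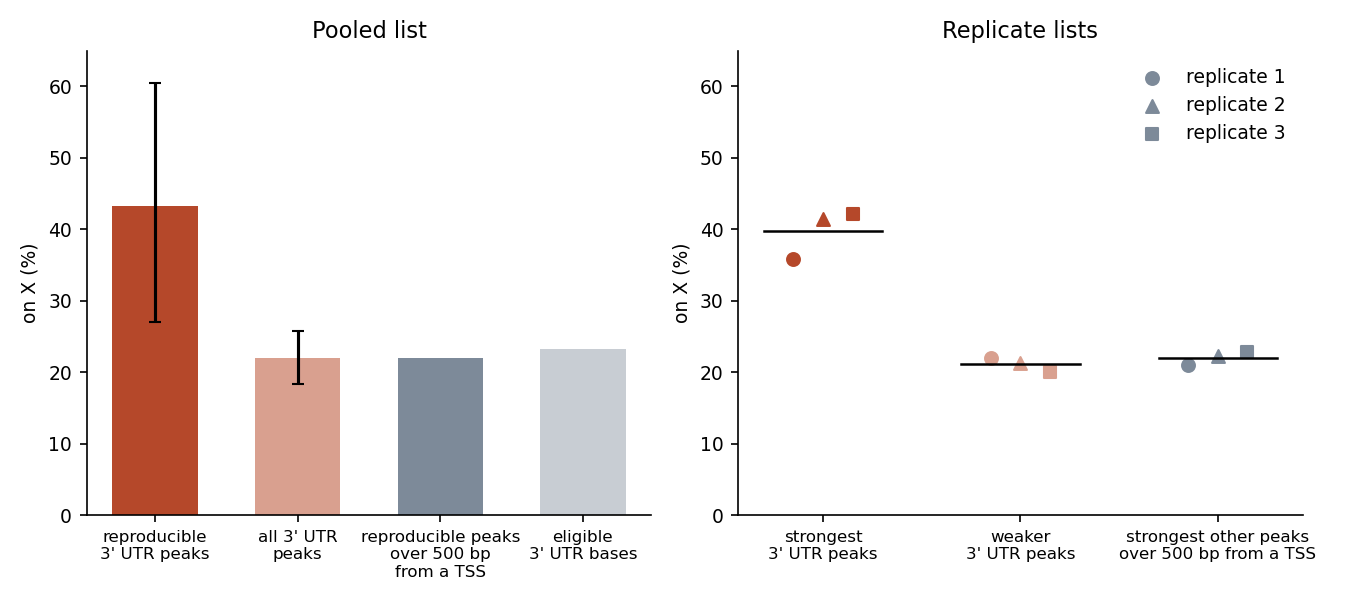
Percent on X. Left, pooled list: reproducible 3' UTR peaks (43.2%), all 3' UTR peaks (22.0%), reproducible peaks over 500 bp from a TSS (22.0%) and open 3' UTR bases (23.3%), with 95% binomial intervals on the first 2 bars. Right, each replicate's strongest 3' UTR peaks, its weaker 3' UTR peaks and its strongest other peaks over 500 bp from a TSS, with a bar at the mean of 3 replicates; the first group lies at 35.9% to 42.1%, above the others.

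The 16 X-linked hosts were CG7872, APC7, stas, CG8206, REG, raskol, Ssu72, CG14440, NetB, para, RSG7, Ac13E, Hex-A, nocte, Crag and ctp. Their median signal was 184, against 174 for the 21 autosomal peaks. An A tract, AAAAAAAA on either strand within 100 bp of the summit, was found at 6 of the 16 (37.5%, 95% interval 15.2 to 64.6) and at 1 of the 21 (4.76%, 0.120 to 23.8). These intervals overlap. The tract was also commoner on X elsewhere: at 24.2% of X-linked and 10.2% of autosomal weaker 3' UTR peaks, and at 22.6% of X-linked and 15.8% of autosomal reproducible peaks over 500 bp from a TSS. Its part in the X share was not tested.

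Su(H) letters, the core of the sites that Su(H) binds, were searched as GTGGGAA or GTGAGAA in 201 bp around each summit on both strands. None of the 37 reproducible 3' UTR peaks held a match, which allows a share of up to 9.49% (exact 95% interval), and 16 of the 505 did (3.17%, 1.82 to 5.09). Of all pooled peaks 4.86% held one, and of all reproducible peaks 5.13%. In the replicate lists the share was 3.94% ± 0.559 for 3' UTR peaks and 4.76% ± 0.0815 for all other peaks (SD, n = 3), lower in 3 of 3 replicates (exact sign-flip permutation p = 0.25).

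The 16 peaks with Su(H) letters were weak, with signals of 35.7 to 75.0 and a median of 45.4. The strongest 3, named after their values were seen, were in chm (75.0), Cka (60.0) and CG5966 (51.3). Only those in chm and CG5966 were overlapped by all 3 full replicate lists, and no strong replicate peak met any of the 16. A match is a string of letters and was not tested for binding.

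Promoter motifs were scarcer in 3' UTR peaks than in promoter peaks, as they were in intron and intergenic peaks. The DNA replication element TATCGATA was found at 3 of the 505 (0.594%), in exu, Imp and VAChT, and at none of the 37, against 0.421% of intron peaks, 0.697% of intergenic peaks and 7.64% of promoter peaks. Of all pooled peaks, 32.3% of which were promoter peaks, 2.77% held it. Its inner letters ATCGAT, which every full element also contains, were found at 6.53% of the 505 (4.54 to 9.06), against 5.08% of intron peaks, 4.97% of intergenic peaks and 9.40% of all pooled peaks. The M1BP core GGTCACAC was found at 2 of the 505 (0.396%), against 0.543% of intron peaks, 0.337% of intergenic peaks, 5.27% of promoter peaks and 2.02% of all.

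Dinucleotide repeats were commoner than in the pooled list. CACACACA was found at 45 of the 505 (8.91%, 6.57 to 11.7), against 4.71% of all pooled peaks. It was commoner still in 5' UTR peaks, at 11.2%. Intron peaks stood at 5.61%, intergenic peaks at 4.70%, promoter peaks at 4.34% and coding peaks at 0.387%. In the replicate lists CACACACA was at 7.64% ± 1.23 of 3' UTR peaks and 4.59% ± 0.255 of other peaks (SD, n = 3). It was higher in 3 of 3 replicates (exact sign-flip permutation p = 0.25). TATATATA was found at 3.56% of the 505 (2.13 to 5.57), against 2.27% of all pooled peaks, and was also higher in 3 of 3 replicates (exact sign-flip permutation p = 0.25). A tracts, at 13.5% (10.6 to 16.8), stood near the 12.9% of all pooled peaks and below the 16.4% of intron peaks. In the replicate lists they were at 14.3% ± 0.665 of 3' UTR peaks and 12.4% ± 0.365 of other peaks (SD, n = 3). The A tract share was higher in 3 of 3 replicates (exact sign-flip permutation p = 0.25). Among the 37 reproducible peaks CACACACA was found at 2 (5.41%) and TATATATA at none. The weaker members stood at 9.19% and 3.85%, and the difference was not tested.

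CAGGTAG was found at 7 of the 505 (1.39%) and 2 of the 37, against 1.04% of all pooled peaks. TGANTCA was found at 3.76% of the 505, against 4.22%, TGATAAG at 2.38%, against 3.48%, and GAGAGAG at 5.35%, against 3.83%. Other strings were the E-boxes CAGCTG, at 7.13% of the 505, against 10.3% of all pooled peaks, and CACGTG, at 1.19%, against 2.45%. CAGCTG was at 8.02% of intron and 6.83% of intergenic peaks, near the 3' UTR share. It was at 18.4% of coding, 15.1% of 5' UTR and 12.9% of promoter peaks. The GC box GGGGCGG was found at 2.18%, against 2.09%, and CAGCAGCA at 3.37%, against 3.68%. In the replicate lists the GATA string, both E-boxes and CAGCAGCA were lower in 3' UTR peaks in 3 of 3 replicates (exact sign-flip permutation p = 0.25 each). The differences for the Zelda, AP-1, GAGA and GC box strings did not share 1 sign.

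The poly(A) signal hexamer AATAAA was found on either strand at 38.2% of the 505, against 37.5% of all pooled peaks. In the replicate lists it was at 40.4% ± 2.41 of 3' UTR peaks and 36.6% ± 1.02 of other peaks (SD, n = 3), higher in 3 of 3 (exact sign-flip permutation p = 0.25). In the pooled list it was found within 100 bp of the summit on the host's own strand at 125 of the 505 (24.8%) and on the other strand at 99 (19.6%). Among the 37 the counts were 12 (32.4%) and 8 (21.6%). The transcript end lay within 100 bp of the summit for 72 of the 505 (14.3%) and for 7 of the 37 (18.9%). The median G+C content of the window was 38.3% in 3' UTR peaks, against 57.2% in coding peaks and 39.8% in all pooled peaks, and it was 38.8% in introns.

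Hosts were counted in 15 gene lists, beside the 3.29% of all genes with a 3' UTR that hosted a 3' UTR peak. Of 27 Notch components 1 was a host (3.70%, 95% interval 0.0937 to 19.0), the co-repressor gene CtBP (signal 41.9). Of 24 Notch targets 3 were (12.5%, 2.66 to 32.4), the cell adhesion gene rst (87.2), E(spl)m6-BFM of the Enhancer of split complex (47.4) and the EGF receptor antagonist gene aos (43.0). Both intervals include 3.29%. The rst summits, with signals of 87.2 and 79.5, also lay in an intron of the opposite-strand gene kirre. Their position can be read as either feature. No Notch component or target hosted a reproducible 3' UTR peak. Only 37 of the 13534 genes with a 3' UTR hosted one. The lack of one in a list this short, here or below, is therefore not a result about its genes. Of the 3 targets only rst was overlapped by all 3 full replicate lists.

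RNA-binding and translation regulators gave the highest share, with 12 of 47 genes (25.5%, 95% interval 13.9 to 40.4) and none reproducible. The strongest were exu (96.1), how (87.6) and Rbp9 (69.3), which act in mRNA localisation, splicing and neuronal mRNA regulation. Synaptic and ion channel genes had 7 of 32 (21.9%, 9.28 to 40.0), led by para (151, the only reproducible one), nAChRalpha7 (54.7) and Sh (47.7). Both lists hold genes with long UTRs, with medians of the longest UTR of 1904 bp and 3295 bp against 227 bp over all genes. The part of UTR length in these counts was not tested.

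The other lists held few hosts. Cell adhesion genes had 3 of 33 (rst 87.2, Fas3 68.0, tutl 43.9), segmentation and Hox genes 3 of 34 (Antp 133, cad 49.1, hth 35.1) and neural transcription factors 2 of 28 (pros 104, toy 54.0). Signalling genes had 3 of 46 (pan 45.5, aos 43.0, pnt 38.8), Polycomb and Trithorax genes 2 of 23 (osa 54.1, Su(z)2 49.1) and cytoskeleton genes 2 of 31 (chic 95.4, cpb 48.1). Chaperones had 2 of 25 (Hsc70-5 39.6, Hsc70-3 35.4) and ribosomal protein genes 3 of 85 (RpS26 92.6, RpL38 54.9, RpL37A 54.9).

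No cell cycle gene of 24, no chromatin gene of 22 and no elongation factor gene of 7 hosted a 3' UTR peak. The medians of their longest UTRs were 433 bp, 409 bp and 333 bp, above the 227 bp of all genes. The upper ends of their exact 95% intervals were 14.2%, 15.4% and 41.0%. Over all lists, 41 of 480 genes (8.54%) were hosts.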

How the data were processed

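Peaks of Mam-GFP ChIP-seq were taken from the deposited dm6 lists. These were a pooled list of peaks and background, an IDR-thresholded list and 1 list for each of the 3 replicates. The signal value of each peak is the authors' deposited peak height, never negative, and its scaling is unstated. It was used only to describe and rank peaks within a list. The labels name neither aligner nor peak caller (not given in the sources used here). The lists hold no read numbers, so sequencing depth is unknown. The dm3 lists and a control were not used here.

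Summits were classed with the Ensembl release 115 annotation (BDGP6.54) and sequence was read from the RefSeq Release 6 assembly. A summit within 500 bp of a protein-coding TSS was a promoter summit; otherwise a 5' UTR took precedence over coding sequence, that over a 3' UTR, and that over an intron. No filter on signal was applied. Motifs were searched on both strands in 201 bp centred on each summit. Shares carry exact Clopper-Pearson 95% intervals, which cover counting error only. Over the replicates, differences were tested with exact two-sided sign-flip permutation tests, whose smallest p with 3 replicates is 0.25. The labels call the replicates biological without naming the collections, so the spread between them may be partly technical. The members, gene lists and motifs were chosen with earlier results of these data known. Named genes were the hosts of all reproducible members, of the 10 strongest other members, genes with at least 3 members, and up to 3 hosts per gene list by signal. Of 407 list entries, 2 matched no gene. Classing and motif search were tested on planted positions and motifs. Alternatives were other TSS distances, transcript sets, peak centres, overlap rules, windows and leaving out each replicate. Python 3.11.15 with NumPy 2.4.6, pandas 2.3.3, SciPy 1.17.1 and matplotlib 3.10.9 was used.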

Additional observations from a re-analysis of the deposited data

How the results depend on the processing

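Of 77 alternative values computed for 15 results, 15 moved beyond the interval or range of their main value. The 3 differences tested over the replicates kept their sign under every alternative computed for them. Keeping only pooled peaks above the median rank left 142 members with a median signal of 77.8 and a reproducible share of 26.1%, since all reproducible peaks lie there. With TSS distances of 200 or 1000 bp there were 571 or 425 members, of which 48 or 35 were reproducible. Strong replicate peaks covered 7.66% of members when summits had to lie within 100 bp, 23.2% with the strongest 10000 peaks of each list, and 8.32% to 9.11% with each replicate left out. Leaving out each replicate gave rank differences of −15.5 to −14.8, 3' UTR share differences of −2.35 to −1.49 points and X differences of 17.1 to 21.1 points, with an exact sign-flip permutation p of 0.5 throughout. Against other peaks over 500 bp from a TSS the rank difference was −7.52, smaller in size than the −15.1 against all other peaks. The X results and their alternatives were chosen after seeing the data; over the pooled alternatives the X share ran from 39.3% to 46.9%. Windows of 50 or 150 bp each side gave Su(H) shares of 1.58% or 5.35% and A tract shares of 6.34% or 20.2%; CA repeats were at 3.56% with 50 bp. Within 250 or 1000 bp there were 7 or 29 members near a non-coding TSS and 39 or 133 near an opposite-strand 3' end. Members above their median signal put 26 list genes among the hosts. The sign-flip tests pair peak classes within each replicate; between groups, no paired analysis was possible because the series has 1 group. Depth is unknown, and 37 reproducible peaks limit every share given over them.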

Other observations

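Non-coding genes overlapped 11 of the 505 members, none of them reproducible. These members were named after their values were seen. Both 3' UTR peaks of Myc (signals 82.9 and 43.1) lay inside lncRNA:CR44999 on the same strand, and a peak of elav (58.3) lay inside lncRNA:enrr on the host's strand. The stronger Myc summit also lay in the 3' UTR of the opposite-strand gene CG12535. The summit in osp (53.0) lay inside tRNA:Pro-AGG-1-3 on the host's strand, 44 bp from its start. That in CG42524 (61.3) lay outside mir-278, 187 bp from its start.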
